A study of Mus musculus with 8 samples.

Results

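Skeletal muscle of chow-fed mice with and without *Tert* in endothelial cells (EC) is described here through a pair of RNAseq libraries, 1 of EC-*Tert*-KO and 1 of WT, taken by their tissue, diet and genotype from the 8 libraries of the study. Both are of GFP+ cells sorted from gastrocnemius muscle at 8 months of age. The KO animals carried *Tie2e-cre*, both floxed *Tert* alleles and the *mTmG* reporter, and the WT littermates carried *Tie2e-cre*, both wild-type *Tert* alleles and the same reporter, so that Cre and the reporter are shared by both groups. In *mTmG* mice a cell in which Cre has acted, and all of its descendants, make membrane GFP (mG) instead of membrane Tomato. The *Tie2e* promoter therefore sets which cells carry mG, and the sort which cells entered the libraries. Whether a library came from 1 mouse or from several, and the genetic background of the mice, are not given in the sources used here. The other 6 libraries are KO and WT pairs of mG+ cells from subcutaneous adipose tissue (SAT) on a high-fat diet (HFD), SAT on chow and visceral adipose tissue (VAT) on chow.

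TERT is the catalytic subunit of telomerase, the enzyme that adds telomeric repeats to chromosome ends. The paper states that it is turned off early in human development, while mice keep expressing it in somatic cells. Muscle capillaries lie along every fibre and are wrapped by pericytes, arterioles carry a coat of smooth muscle, and satellite cells, the stem cells of muscle, sit beside capillaries under the basement membrane of the fibre. *Tek*, which encodes Tie2, is expressed in endothelium and also in some blood-forming and myeloid cells.

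The WT library held 17399719 counts and the KO library 12940511, within the range of the other libraries (6214269 to 18855772). At least 1 count was present for 22075 genes in WT and 23529 in KO. Values are given as counts, or as CPM, the count scaled to sequencing depth with TMM factors, and effects as the log2 fold change of KO over WT. With 1 library on each side there is no replicate check: a difference describes these libraries, its 95% interval covers counting error only, and no p-value was computed within the pair. In such a bulk sample fewer cells of a type and less RNA per cell cannot be told apart. A gene was called beyond 2-fold where its whole interval lay beyond 2-fold, and 3 counts, or 0.184 CPM in WT and 0.221 CPM in KO, served as the floor for genes listed at 0. A fold against this floor takes the count of the other library as it is, without its counting error.

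Of 54532 genes, 16967 averaged 10 counts or more over both muscle libraries. Among these, 468 were beyond 2-fold higher in KO (2.76%) and 341 beyond 2-fold lower (2.01%). Intervals wholly above 0 were found for 4594 genes (27.1%) and wholly below 0 for 4898 (28.9%), so that an interval on 1 side of 0 was common in any list. The median log2 fold change of all genes tested was 0.00. With library totals in place of TMM it shifted up by 0.16, so that list medians and genes between −0.16 and 0 change sign under that scaling. Of the genes beyond 2-fold, 57.8% were higher in KO with TMM and 70.2% with library totals. The median also ran with the mean count, from 0.25 in the lowest decile of genes to −0.20 in the highest. By comparison, 4.77% of genes lay beyond 2-fold in muscle, 4.50% in VAT, 23.8% in SAT on HFD and 30.6% in SAT on chow.

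**Figure D1:**
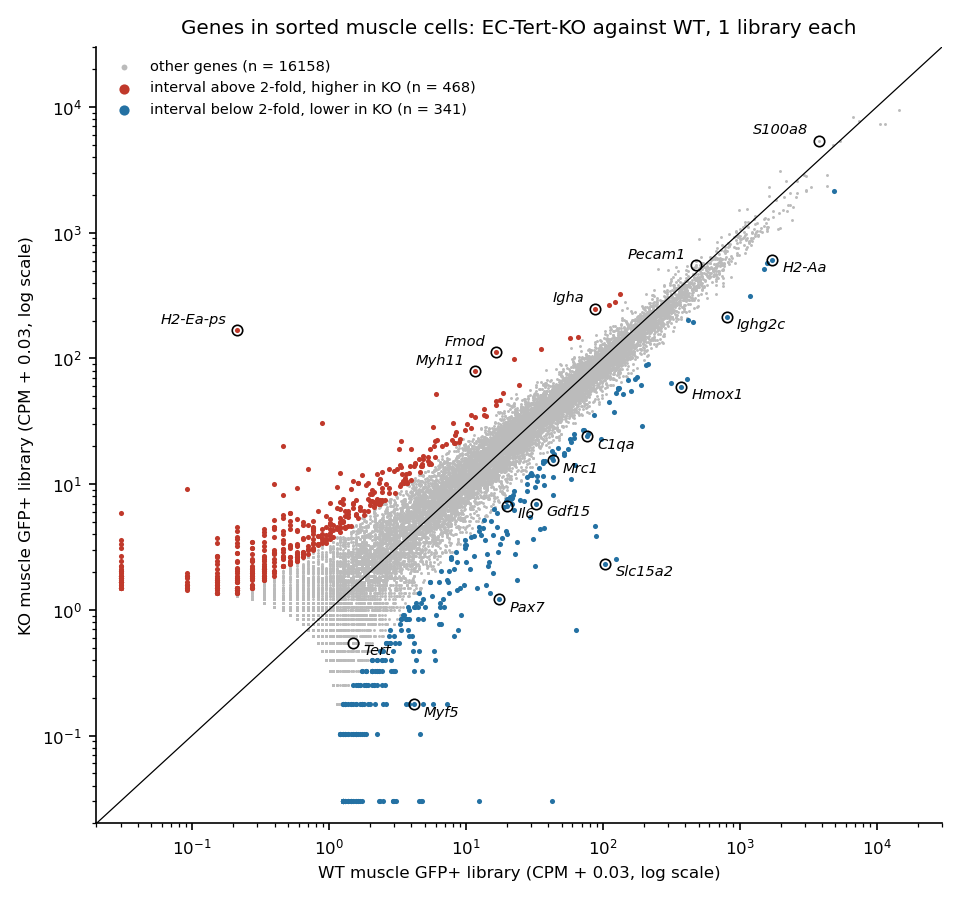
CPM of 16967 genes in the WT library (horizontal) and the KO library (vertical) of muscle, both on log axes after adding 0.03, with 1 dot a gene and the diagonal marking equal levels. The 468 red genes and the 341 blue genes have counting intervals wholly beyond 2-fold, and the circled genes are named in the text.

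*Tert* (ENSMUSG00000021611; GRCm38, chromosome 13, 73626911 to 73649843), the targeted gene, had 24 counts in WT and 7 in KO. Its log2 fold change was −1.46 (−2.97 to −0.26), in the direction of the labels, but the interval reaches inside 2-fold. The SAT pairs had 114 WT and 0 KO counts on HFD and 70 and 11 on chow. VAT had 3 and 9, against the direction of the labels, but with an interval that spans 0 (0.90, −1.02 to 3.50). No other telomerase or shelterin gene was beyond 2-fold among the 17 tested. *Terf1* and *Terf2*, which bind the telomeric duplex, had 290 and 526 counts in WT and 229 and 459 in KO, with intervals that span 0. The median of the list was −0.06.

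Markers of EC were present in both libraries and slightly higher in KO. The 31 pan-endothelial genes summed to 4632 CPM in WT and 5754 CPM in KO, against 664 to 4860 CPM in the adipose tissue libraries. Markers of other cells were also present. The 27 neutrophil granule genes summed to 42427 CPM in WT and 47763 CPM in KO, against 440.5 to 6674 CPM elsewhere, and took 3.97% of all WT counts where the pan-endothelial genes took 0.434%. *Ngp*, *S100a9* and *Ltf* had 121965, 108546 and 87221 counts in WT and 104947, 113780 and 72648 in KO, and *Elane* and *Mpo*, made in granulocyte precursors of the marrow, had 8486 and 18383 in WT and 8695 and 21082 in KO, against at most 2.66 and 7.06 CPM elsewhere. The GFP+ libraries of muscle thus held much RNA of granulocyte genes, at like levels in both genotypes. Mature fibre and adipocyte transcripts were scarce. *Mb*, the myoglobin gene, had 2 and 0 counts, and *Adipoq*, *Lep*, *Plin1*, *Cidec* and *Cfd* had between 0 and 7 counts in either library. What part cells other than EC had in the differences below was not tested.

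**Figure D2:**
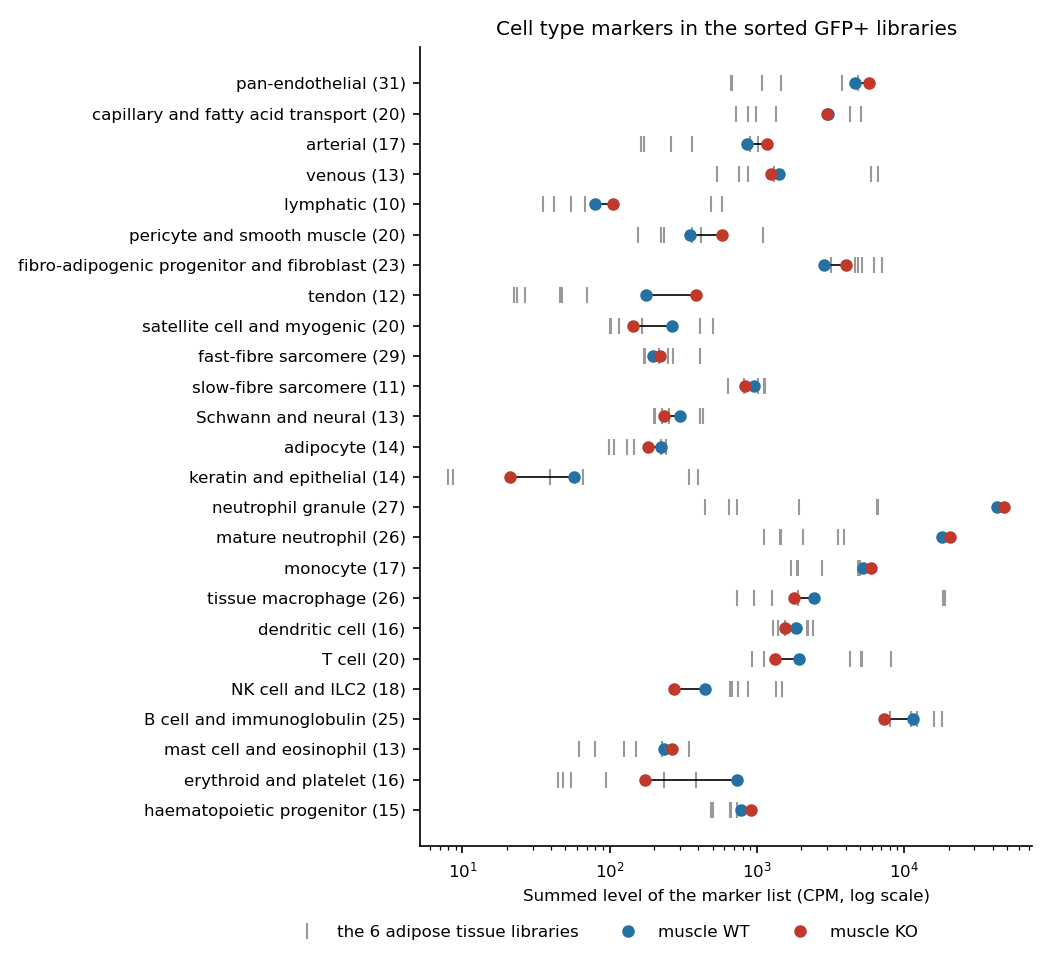
Summed CPM of 25 marker lists (number of genes in brackets) on a log axis, with muscle WT in blue, muscle KO in red and the 6 adipose tissue libraries as grey ticks. Neutrophil lists are highest in both muscle libraries, tendon, pericyte and stromal lists lie farther right in KO than in WT, and erythroid, keratin, satellite cell and NK cell lists farther left.

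Endothelial identity genes differed little between the muscle libraries. None of the 31 pan-endothelial genes was beyond 2-fold, with a median of 0.28 (0.19 to 0.33), and 26 had intervals above 0 and 1 below. *Pecam1*, an adhesion molecule of EC junctions, had 7797 counts in WT and 7502 in KO, or 478.5 and 552.8 CPM, a log2 fold change of 0.21 (0.16 to 0.25). *Cdh5*, the VE-cadherin of the same junctions, had 5428 and 5027 counts (0.15). *Kdr*, the main VEGF receptor, had 4575 and 3777 counts (−0.01, −0.08 to 0.05). *Vwf*, the platelet-binding factor stored in EC, had 3823 and 4785 (0.59), and *Nos3*, the endothelial nitric oxide synthase, 702 and 816 (0.48).

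Across vessel types, arterial genes stood somewhat higher in KO and venous genes did not. The arterial list had a median of 0.52 (0.25 to 0.85), with 13 of 17 intervals above 0 and 1 below. *Gja5*, the connexin 40 gene of arterial EC, had 296 counts in WT and 498 in KO (1.01, 0.80 to 1.23), and *Sema3g* had 1702 and 2255 (0.67). The venous list had a median of −0.05 and the capillary and fatty acid transport list 0.09, and no member of the arterial, capillary or venous lists was beyond 2-fold. *Cd36* and *Fabp4*, which take up and carry fatty acids, had 6862 and 5032 counts in WT and 6743 and 5240 in KO (0.24 and 0.32). Lymphatic genes were mixed, with a median of 0.75 over 10. *Ccl21a*, the chemokine that draws dendritic cells into lymphatics, had 16 and 59 counts (2.11, 1.33 to 3.04) and *Mmrn1* 77 and 188 (1.54), both beyond 2-fold, while *Prox1*, which specifies lymphatic EC, had 177 and 86 (−0.77). *Ccl21a* shares near-identical copies in the genome, so that its count is uncertain.

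Signals that act on EC were mostly level. The VEGF, angiopoietin and apelin list had a median of 0.26 and 1 of 22 genes beyond 2-fold, *Angpt1*, the Tie2 ligand made by mural cells, with 39 counts in WT and 168 in KO (2.35, 1.86 to 2.91). *Vegfa* had 1622 and 1339 counts (−0.01). In the Notch list, with a median of −0.12, *Hey2* had 16 and 55 counts (2.01, 1.22 to 2.95), beyond 2-fold, while *Notch1* had 6084 and 4276 (−0.24) and *Dll4* 803 and 555 (−0.27). Of the genes of vascular tone and haemostasis, with a median of 0.19, *Gucy1a1*, a subunit of the nitric oxide receptor, had 89 and 257 counts (1.79, 1.44 to 2.16), the shear-responsive *Klf2* had 6620 and 6320 (0.20), and *Edn1* had 337 and 403 (0.52). *Icam1*, which binds leukocytes, had 3279 and 1325 counts (−1.04, −1.14 to −0.95), the lowest value of the defining adhesion genes, and *Sele* had 241 and 153 (−0.39). The median of that list was −0.10. The TGF-beta list had a median of −0.11, and its 1 member beyond 2-fold was *Gdf10*, with 59 and 162 counts (1.71).

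Genes of pericytes and vascular smooth muscle were higher in KO. The median of 19 genes was 1.13 (0.00 to 1.76), and 7 of them lay beyond 2-fold higher and none lower, against 2.76% of all genes. *Myh11*, the smooth muscle myosin (chromosome 16, 14194535 to 14291372), had 190 counts in WT and 1080 in KO, or 11.7 and 79.6 CPM, a log2 fold change of 2.77 (2.55 to 3.0). *Acta2*, smooth muscle actin, had 572 and 1614 counts (1.76, 1.62 to 1.90). *Cnn1*, calponin, had 2 and 50 (4.57, 2.98 to 7.99), *Lmod1* 24 and 96 (2.24), and *Mylk*, the myosin light chain kinase, 305 and 714 (1.49). The pericyte genes *Pdgfrb* and *Cspg4* had 160 and 76 counts in WT and 367 and 188 in KO (1.46 and 1.56). *Rgs5*, also of pericytes, had 1149 and 1010 (0.08, −0.05 to 0.20), and *Tagln*, of smooth muscle, 50 and 24 (−0.78), so that the list did not move as 1 block. *Myh11* was also higher in KO in SAT on chow (3.08) and in VAT (2.28), and had an interval spanning 0 in SAT on HFD (0.30).

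Matrix genes of fibroblasts and tendon were higher as well. The 29 collagen chains had a median of 0.99 (0.52 to 1.19), with 25 intervals above 0, none below and 8 beyond 2-fold higher. Of all genes, 2.76% were beyond 2-fold higher. *Col1a1* and *Col1a2*, the chains of type I collagen, had 1792 and 1999 counts in WT and 3634 and 3793 in KO (1.28 and 1.19). *Col16a1* had 51 and 179 counts (2.06), *Col14a1* 132 and 286 (1.38), *Col12a1* 178 and 378 (1.35), *Col8a2* 6 and 70 (3.69), *Col4a4* 6 and 39 (2.86), and *Col2a1*, the collagen of cartilage, 85 and 222 (1.64). In the fibro-adipogenic progenitor and fibroblast list the median was 0.64 (0.09 to 1.04) and 4 of 23 genes were beyond 2-fold, *Dcn*, *Col1a1*, *Col1a2* and *Igf1*. *Dcn*, decorin, had 2183 and 4385 counts (1.27), and *Igf1*, a growth factor for fibres, 147 and 310 (1.34). The receptor *Pdgfra*, which marks these progenitors, had 224 and 383 (1.04, 0.80 to 1.28), while *Pi16* had 1931 and 1708 (0.09).

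Of 12 tendon genes, whose median was 1.11 (−0.41 to 2.75), 6 lay beyond 2-fold higher, against 2.76% of all genes. Intervals lay above 0 for 9 of the 12 and below 0 for 1, and the lowest log2 fold change was −1.30. *Fmod*, fibromodulin (chromosome 1, 134037254 to 134048277), had 270 counts in WT and 1513 in KO, 16.6 and 111.5 CPM (2.75, 2.56 to 2.94), and at most 4.46 CPM in any adipose tissue library. *Tnmd*, tenomodulin, had 17 and 58 counts (2.0), *Comp* 96 and 224 (1.48) and *Cilp2* 9 and 125 (3.98). *Kera*, the proteoglycan keratocan, was listed at 0 in WT with 80 counts in KO, at least 32.0-fold higher against the floor, with a lower interval bound of 4.67 on the log2 scale. The tendon transcription factors *Scx* and *Mkx* had 31 and 32 counts in WT and 14 and 20 in KO, with intervals that span 0. The basement membrane list had a median of 0.39 and no gene beyond 2-fold, with *Hspg2*, perlecan, at 5776 and 6714 counts (0.48). In the matrix remodelling list, with a median of 0.19, *Adamts2*, which trims procollagen, had 79 and 226 counts (1.77) and *Mmp3* 21 and 60 (1.75), while *Mmp19* had 359 and 111 (−1.43). Summed over the list, tendon genes stood at 176 CPM in WT and 384 CPM in KO, against 22.2 to 70.1 CPM in the adipose tissue libraries.

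Satellite cell genes were much lower in KO. Of the 20 in the list, 13 passed the count filter, with a median of −2.22 (−3.84 to −0.90). Of these 13, 12 had intervals below 0 and 7 lay beyond 2-fold lower, against 28.9% and 2.01% of all genes. *Pax7*, the transcription factor that marks satellite cells (chromosome 4, 139737062 to 139833528), had 283 counts in WT and 16 in KO, or 17.4 and 1.18 CPM, a log2 fold change of −3.84 (−4.71 to −3.16). *Myf5* and *Myod1*, which commit these cells to muscle, had 67 and 49 counts in WT and 2 and 7 in KO (−4.52, −7.88 to −2.89, and −2.47, −3.93 to −1.39). The M-cadherin gene *Cdh15* had 93 and 2 counts (−4.99), *Fgfr4* 239 and 32 (−2.62), *Megf10* 140 and 19 (−2.59) and *Chrdl2* 121 and 22 (−2.17). *Myog*, of differentiating myoblasts, had 17 counts in WT and was listed at 0 in KO, but did not pass the filter. The WT muscle library stood above all adipose tissue libraries, where *Pax7* had at most 2.0 CPM and *Myf5* at most 1.33 CPM, but the KO muscle library, at 1.18 and 0.147 CPM, did not. Counts of some of these genes were lower in KO in other pairs too. The list as a whole cannot be judged there, since few of its members passed the count filter. Its median was 0.35 in SAT on chow and 0.31 in VAT, over 5 genes tested in each, and −0.13 over 4 in SAT on HFD. Genes under the count filter of a pair do not enter its median. *Pax7* had 20 WT and 0 KO counts in SAT on chow, 18 and 0 in VAT, and 0 in both libraries of SAT on HFD. In VAT *Myf5* had 12 and 0, *Cdh15* 9 and 0, *Megf10* 17 and 0 and *Fgfr4* 25 and 2. In SAT on chow *Cdh15* had 10 and 7, with an interval that spans 0.

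Fibre transcripts were few, and some were fewer in KO. *Myh4*, the fast IIb myosin, had 111 counts in WT and 16 in KO (−2.50, −3.39 to −1.77), *Myh1* 27 and 3 (−2.73, −5.27 to −1.21) and *Myh2*, the IIa myosin, 6 and 4, under the filter. *Acta1*, skeletal actin, had 185 and 52 (−1.56), *Actn3* 95 and 6 (−3.62), and *Myoz1* was listed at 0 in KO with 21 counts in WT, at least 5.83-fold lower. *Tpm2*, a tropomyosin made in smooth muscle too, had 99 and 306 counts (1.89, 1.56 to 2.23). These were 5 genes beyond 2-fold lower and 1 higher of 24 in the fast-fibre list, whose median was −0.32 (−1.33 to 0.14). *Atp2a1*, the calcium pump of fast fibres, had 111 and 78 counts (−0.24, −0.68 to 0.19). The slow-fibre list, with 7 genes tested, had a median of −0.12. Fast-fibre genes were also lower in KO in VAT (median −2.13), where *Acta1* had 813 and 16 counts. Epithelial genes, which mark neither muscle nor vessels, had all 8 tested intervals below 0, with a median of −1.53 and *Krt8* at 159 and 42 counts (−1.65). *Krt5*, *Krt14* and *Cldn4* were also beyond 2-fold, with 33, 33 and 62 counts in WT and 4, 4 and 11 in KO, and the 12 Schwann and neural genes had a median of −0.21.

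**Figure D3:**
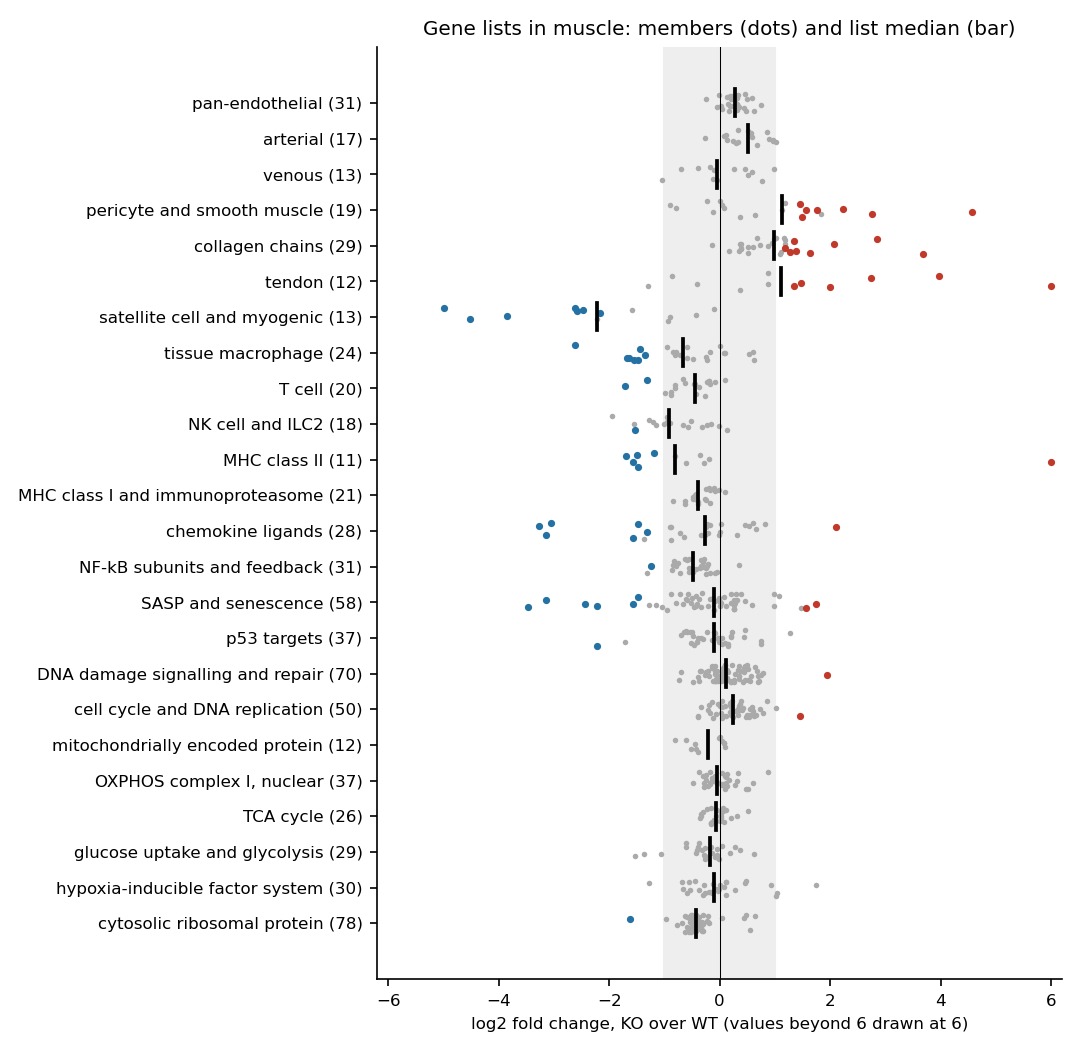
Log2 fold change of KO over WT (horizontal) of the members of 24 gene lists in muscle, with 1 dot a gene, the list median as a black bar, red and blue dots for members beyond 2-fold and the grey band for values within 2-fold. Pericyte, collagen and tendon medians lie near 1, the satellite cell median lies at −2.22, and most metabolic lists lie close to 0.

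Red cell transcripts were lower in KO. *Hba-a1*, an alpha globin (chromosome 11, 32283511 to 32284465), had 6719 counts in WT and 930 in KO, 412 and 68.5 CPM (−2.59, −2.69 to −2.49). *Hbb-bs*, the beta globin, had 3171 and 395 (−2.74, −2.90 to −2.59), and *Alas2*, which starts haem synthesis in red cell precursors, 501 and 49 (−3.08, −3.54 to −2.67). *Hba-a2* and *Hbb-bt*, whose reads can be shared with their near-identical copies, had 523 and 277 counts in WT and 30 and 39 in KO. These 5 were beyond 2-fold lower, but the median of the 14 erythroid and platelet genes was −0.06, since others were level or higher. The platelet integrin *Itga2b* had 217 and 304 counts (0.75). In SAT on chow *Hba-a1* was also lower in KO (−1.98) and in VAT it was higher (1.0). *Hmox1*, haem oxygenase, which breaks haem down, had 6039 counts in WT and 807 in KO (−2.64, −2.75 to −2.53) and was the 1 antioxidant or NRF2 target gene beyond 2-fold, in a list with a median of −0.18. It was lower in KO in SAT on HFD too (−2.04) and higher in SAT on chow (1.20). *Spic*, a transcription factor of macrophages that recycle red cells, had 146 and 20 counts (−2.58).

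Macrophage genes were lower in KO. The median over 24 was −0.66 (−1.36 to −0.18), with 17 intervals below 0, 3 above and 7 beyond 2-fold lower, against 2.01% of all genes. *C1qa*, *C1qb* and *C1qc*, the chains of complement C1q, had 1251, 1276 and 910 counts in WT and 326, 339 and 260 in KO (−1.67, −1.65 and −1.54). *Mrc1*, the mannose receptor of resident macrophages, had 699 and 209 (−1.48), and *Trem2*, *Gpnmb* and *Ms4a7* had 204, 262 and 158 in WT and 62, 85 and 21 in KO (−1.45, −1.36 and −2.62). *Csf1r*, the receptor on which macrophages depend, had 4202 and 1800 (−0.96, −1.04 to −0.88), while *Cd163* had 211 and 150 (−0.23, −0.54 to 0.08) and *Pf4* 125 and 150 (0.52). Monocyte genes had a median of 0.03 (−0.27 to 0.17), with 8 of 17 intervals above 0 and 6 below. *Ly6c2* had 8592 and 7209 counts (0.01) and *Ccr2* 1966 and 1998 (0.29). The monocyte median thus did not share the lower level of the macrophage genes, but some members did, such as *Csf1r*, which is in both lists. The complement list had a median of 0.12: the C1q chains were lower, but *C1ra* and *C1s1*, the proteases of C1, and *C2* and *C7*, of later steps, were beyond 2-fold higher, with 129, 228, 5 and 7 counts in WT and 304, 476, 43 and 39 in KO.

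Neutrophil genes were close to level. The granule list had a median of 0.05 (−0.03 to 0.24) and no gene beyond 2-fold, and the mature neutrophil list a median of −0.08 with 2 beyond 2-fold lower. These were *Ptafr*, the receptor for platelet-activating factor, with 2627 and 742 counts (−1.56, −1.68 to −1.44), and *Fpr1*, the formyl peptide receptor, with 1409 and 483 (−1.28). *S100a8* had 61472 and 73366 (0.52), *Csf3r* 5798 and 5735 (0.25) and *Cxcr2* 2116 and 1586 (−0.15).

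Genes of MHC class II, which presents peptides to CD4+ T cells, were lower in KO with 1 exception. The 11 genes had a median of −0.82 (−1.56 to −0.18). Intervals lay below 0 for 10 of them and beyond 2-fold lower for 5, against 28.9% and 2.01% of all genes. *H2-Aa* (chromosome 17, 34282744 to 34287827) had 27903 counts in WT and 8250 in KO, 1713 and 608 CPM (−1.49, −1.53 to −1.46). Its partner chain *H2-Ab1* had 24483 and 6917 (−1.56) and *H2-Eb1* 25927 and 7791 (−1.47). *H2-DMb1*, a chain of the peptide loader, had 1979 and 507 (−1.70) and *Cd74*, the invariant chain, 79648 and 29186 (−1.18, −1.20 to −1.17). *Ciita*, the coactivator of these genes, had 1516 and 990 (−0.35, −0.47 to −0.23). In the other pairs *H2-Aa* was lower in KO in SAT on chow (−1.11) and near level in SAT on HFD (−0.14) and VAT (0.03).

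The exception was *H2-Ea-ps* (ENSMUSG00000036322, chromosome 17, 34342933 to 34344643), with 3 counts in WT and 2291 in KO, a log2 fold change of 9.60 (8.29 to 12.12), the highest of any gene tested. It is annotated as a pseudogene because the reference strain does not transcribe its E alpha gene, which other MHC haplotypes of mice express. WT and KO had 0 and 5496 counts in SAT on chow and 7 and 14205 in VAT, and it was listed at 0 in both libraries of SAT on HFD. All 3 chow pairs thus showed it in the KO library alone above a few counts. The MHC haplotypes of the mice are not given in the sources used here. Whether they differed between KO and WT, and what part that had in the counts of *H2* genes, was not tested. The mean of the class II list, which this gene enters, was −0.00499.

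The class II promoters are shown because these genes lay lower together. Class II promoters share a Y box, which holds an inverted CCAAT element. GATTGG (or CCAATC on the other strand) was searched in the 250 bases before each start in RefSeq promoters of GRCm38.p6, after the values were seen, and was present in 4783 of 32851 promoters (14.6%) and in 7 of the 7 list genes with an entry. The 150 bases up to the start, 5′ to 3′ on the gene's strand with the motif in capitals, read as follows for *H2-Aa* (minus strand, chr17:34287824-34287973), *H2-Eb1* (plus strand, chr17:34305717-34305866) and *H2-DMb1* (plus strand, chr17:34153041-34153190).
H2-Aa: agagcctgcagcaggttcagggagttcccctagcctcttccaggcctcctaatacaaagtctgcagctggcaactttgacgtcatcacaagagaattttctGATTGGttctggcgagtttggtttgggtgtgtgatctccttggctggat
H2-Eb1: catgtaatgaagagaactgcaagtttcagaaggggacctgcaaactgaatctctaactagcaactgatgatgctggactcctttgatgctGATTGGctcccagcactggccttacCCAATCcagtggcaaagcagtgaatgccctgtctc
H2-DMb1: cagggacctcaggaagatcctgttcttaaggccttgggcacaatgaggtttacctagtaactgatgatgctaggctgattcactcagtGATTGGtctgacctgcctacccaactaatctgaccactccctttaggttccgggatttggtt
A match describes these letters only, and binding was not measured. 

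MHC class I and immunoproteasome genes were lower to a smaller extent, with a median of −0.38 (−0.46 to −0.18), 17 of 21 intervals below 0 and none beyond 2-fold. *H2-K1* had 31121 and 14440 counts (−0.84) and *B2m* 28501 and 18180 (−0.38). Of 51 interferon-stimulated genes, with a median of −0.08, *Cxcl9* alone was beyond 2-fold, with 247 and 69 counts (−1.57), while *Ifit3* had 97 and 176 (1.12, 0.76 to 1.5).

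T cell genes were lower in KO, with 18 of 20 intervals below 0 and a median of −0.45 (−0.81 to −0.23). *Cd4* had 1818 counts in WT and 606 in KO (−1.32, −1.46 to −1.19) and *Foxp3*, of regulatory T cells, 211 and 53 (−1.72, −2.19 to −1.29), both beyond 2-fold. *Cd3e*, a chain of the T cell receptor complex, had 835 and 741 (0.09, −0.05 to 0.24). The NK cell and ILC2 list had a median of −0.92 (−1.21 to −0.31), with 14 of 18 intervals below 0 and *Klrg1* beyond 2-fold at 137 and 39 counts (−1.54). *Ncr1*, which defines NK cells, had 65 and 54 (−0.00, −0.55 to 0.54). Dendritic cell genes had a median of −0.24 and none beyond 2-fold, with *Itgax* at 1241 and 505 (−1.03), *Ccr7* at 5382 and 2433 (−0.88) and *Clec9a* at 118 in both (0.26, −0.12 to 0.64). In the mast cell and eosinophil list, with a median of 0.17, *Tpsb2*, a mast cell tryptase, had 44 and 8 (−2.13) and *Cpa3* 294 and 264 (0.11). In the haematopoietic progenitor list, with a median of 0.18, *Myb* had 1458 and 2078 (0.77).

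B cell genes were near level by their median but lower in sum, and the antibody classes differed. The B cell and immunoglobulin list had a median of −0.13 (−0.28 to 0.03). Of its 25 intervals 14 lay below 0 and 6 above, against 28.9% and 27.1% of all genes. It summed to 11496 CPM in WT and 7285 CPM in KO, against 8042 to 18125 CPM in the adipose tissue libraries. *Ms4a1*, which encodes CD20, had 1853 and 1424 counts (−0.12). *Ighg2c*, the constant region of IgG2c, had 13044 and 2916 (−1.90, −1.96 to −1.84), *Igha*, of IgA, 1430 and 3377 (1.5, 1.41 to 1.59), and *Ighm*, of IgM, 17809 and 15673 (0.08). In the other pairs *Igha* was higher in KO in VAT (4.25) and in SAT on HFD (3.19) and lower in SAT on chow (−1.05).

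Genes of inflammatory signalling were mostly lower in KO. Of 31 NF-kB subunits and feedback genes, 28 had intervals below 0 and 1 above, with a median of −0.48 (−0.59 to −0.29) and *Bcl3* beyond 2-fold at 2021 and 713 counts (−1.24). *Nfkb1*, the p50 subunit, had 6955 and 3932 (−0.56) and *Tnfaip3*, the feedback inhibitor A20, 12111 and 6827 (−0.56). The IL-1, inflammasome and TLR list had a median of −0.33, with *Il1a* beyond 2-fold at 61 and 9 (−2.44), *Il1b* at 8891 and 4990 (−0.57), *Tlr2* at 3888 and 1893 (−0.77) and *Tlr4* at 443 and 378 (0.03). In the IL-6 family list, with a median of −0.33, *Il6* had 327 and 91 counts (−1.58, −1.93 to −1.24), and its effectors *Stat3* and *Socs3* had 9288 and 5570 in WT and 4505 and 2674 in KO (−0.78 and −0.79). *Il6st*, the shared receptor chain, had 6196 and 5348 (0.05).

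Chemokine ligands were split, with a median of −0.26 over 28, 6 beyond 2-fold lower and 1 higher, against 2.01% and 2.76% of all genes. *Ccl7*, *Ccl8* and *Ccl12*, ligands for monocytes, had 103, 47 and 28 counts in WT and 10, 4 and 2 in KO (−3.04, −3.15 and −3.28). *Cxcl1*, a neutrophil attractant, had 451 and 135 (−1.47, −1.76 to −1.20) and *Cxcl16* 598 and 199 (−1.32), while *Cxcl2* had 5385 and 4538 (0.02) and *Cxcl12*, of stroma and EC, 5141 and 4288 (0.00). Among 21 receptors, with a median of −0.30, *Ccr1* had 2351 and 1859 (−0.07). The leukotriene and prostaglandin list had a median of −0.15 and no gene beyond 2-fold, with *Alox5* at 1515 and 1634 (0.37) and *Ptgs2* at 2693 and 1998 (−0.17).

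The senescence-associated secretory phenotype (SASP), about which the study asked, showed members on both sides in muscle. Of 58 SASP and senescence genes, 6 lay beyond 2-fold lower and 2 higher, against 2.01% and 2.76% of all genes. The list had 26 intervals below 0 and 18 above, against 28.9% and 27.1% of all genes, and a median of −0.11 (−0.43 to 0.08). Lower were *Il6*, *Cxcl1*, *Il1a* and *Ccl8*, given above, with *Mmp12*, macrophage elastase, at 244 and 18 counts (−3.46, −4.28 to −2.81) and *Gdf15*, a stress cytokine, at 527 and 94 (−2.22, −2.56 to −1.90). Higher were *Igfbp6*, at 219 and 540 (1.56, 1.34 to 1.8), and *Mmp3*. In SAT on chow *Il6* and *Gdf15* went the other way (5.22 and 2.06), as did *Cxcl1* (3.64), and the list median there was 0.93. *Cdkn1a*, which encodes p21, had 4497 and 2472 counts (−0.60), *Cdkn1b* 5680 and 4217 (−0.17) and *Trp53* 2560 and 1541 (−0.47). *Cdkn2a* had 13 and 8 counts, too few to tell a change from counting error (−0.42, −1.91 to 0.94). The list of CDK inhibitors, p53 and Rb had a median of −0.24, with no gene beyond 2-fold, and the 37 p53 targets −0.10, with *Gdf15* alone beyond 2-fold. *Mdm2* and *Ccng1*, typical p53 targets, had 2126 and 1457 counts in WT and 1328 and 912 in KO (both −0.41), and *Phlda3* 66 and 133 (1.27).

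**Figure D4:**
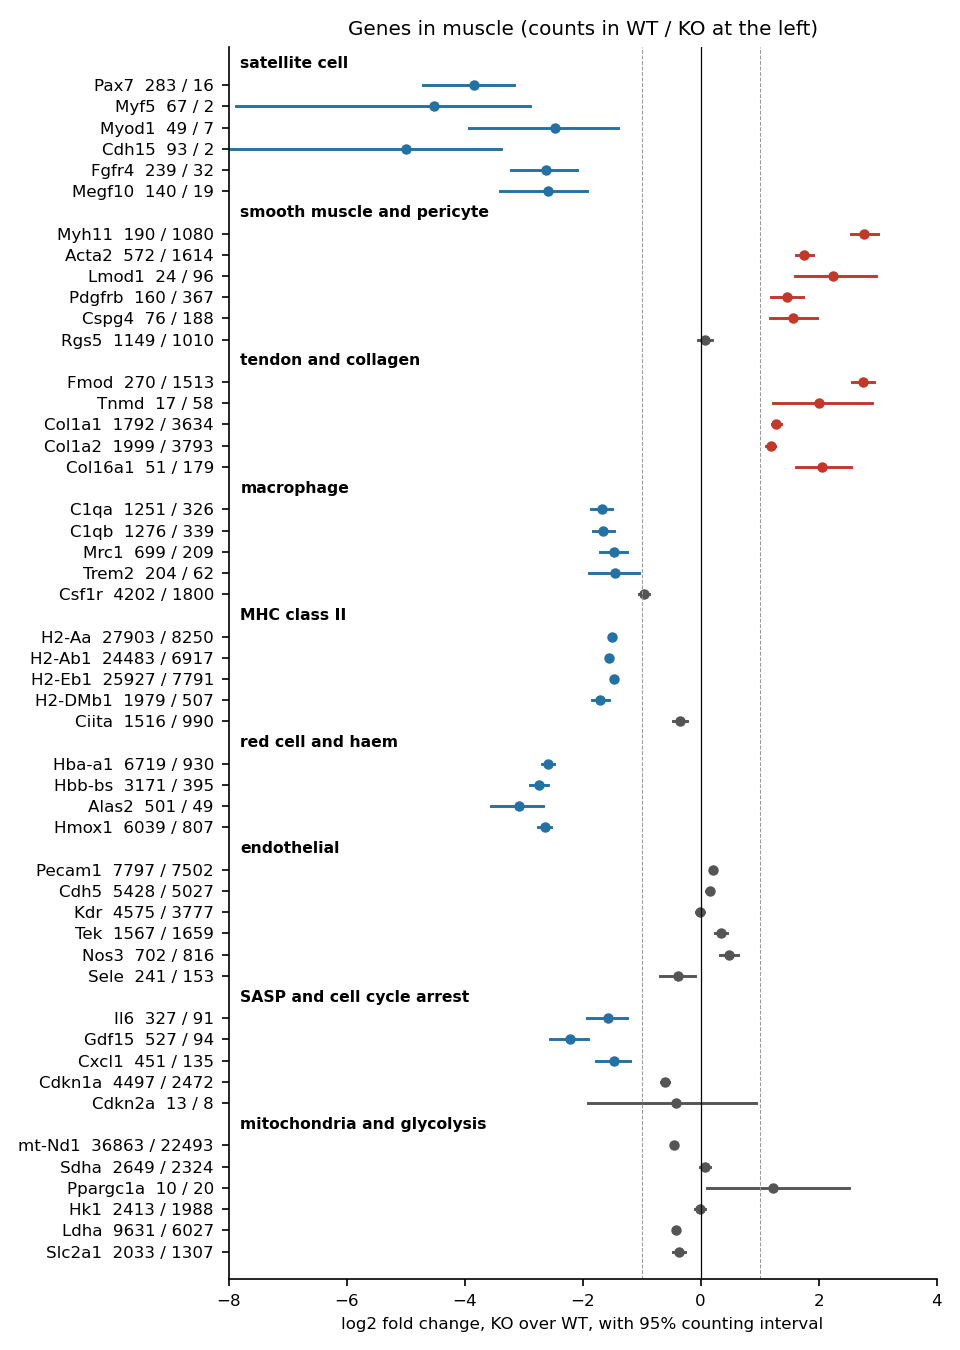
Log2 fold change of KO over WT in muscle (dots) with the 95% counting interval (bars, drawn to −8 at most) for genes of 9 groups, with counts in WT and KO beside each name. Red and blue mark intervals wholly beyond 2-fold (dashed lines). *Pax7*, *Hmox1* and *Gdf15* lie to the left and *Myh11* and *Fmod* to the right. Most endothelial and metabolic genes lie nearer 0, but *Ppargc1a*, at low counts, lies at 1.22.

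Cell cycle genes were slightly higher in KO. Of 50, 32 had intervals above 0 and 7 below, with a median of 0.24 (0.12 to 0.39), and *Cenpf*, a kinetochore gene, was beyond 2-fold at 271 and 619 counts (1.45, 1.25 to 1.67). *Mki67*, the proliferation marker, had 4143 and 7002 (1.02, 0.97 to 1.08) and *Top2a* 5009 and 5370 (0.36), while *Pcna*, the replication clamp, had 4748 and 3021 (−0.39). *Mki67* stood at 254 and 516 CPM in muscle, against 43.5 to 81.0 CPM in the adipose tissue libraries. DNA damage genes had a median of 0.12 over 70 and 1 beyond 2-fold, *Palb2*, the partner of BRCA2, with 39 and 126 (1.94). *Atm*, the kinase that senses double-strand breaks, had 975 and 818 (0.01, −0.13 to 0.15) and *Chek2*, its target, 257 and 166 (−0.37). Clustered histone genes had a median of 0.11, with *Hist1h2bb* and *Hist1h4k* listed at 0 in WT and 22 counts each in KO, and DNA methylation enzymes 0.22, with *Tet2* at 2332 and 1525 (−0.35).

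Nuclear mitochondrial genes and glycolytic genes differed little in muscle, while the mitochondrially encoded genes summed lower in KO. The 12 mitochondrially encoded protein genes tested had a median of −0.21, with 6 intervals below 0 and 4 above. Such genes took 2.20% of counts in WT and 1.79% in KO. They summed to 23525 CPM in WT and 17076 CPM in KO (−0.46), against 18052 to 37688 CPM in the adipose tissue libraries. *mt-Nd1*, a subunit of complex I, had 36863 and 22493 counts, 2263 and 1658 CPM (−0.45, −0.47 to −0.42), and *mt-Co1* 237419 and 128937 (−0.62). Nuclear genes of the respiratory complexes had medians of −0.05 (complex I, 37 genes), −0.04 (II, 4 genes), −0.03 (III, 9 genes), −0.01 (IV, 14 genes) and −0.17 (V, 16 genes), each turning positive or near 0 with library totals, and none was beyond 2-fold. *Sdha*, of complex II, had 2649 and 2324 counts (0.08, −0.01 to 0.16). The TCA cycle had a median of −0.06 and mitochondrial biogenesis genes −0.10. *Ppargc1a*, the biogenesis coactivator PGC-1α, had 10 counts in WT and 20 in KO (1.22, 0.10 to 2.52), which at this depth is a broad interval. *Tfam* had 533 and 389 (−0.19), and the mitochondrial ribosome list had a median of 0.08.

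Glucose uptake and glycolysis had a median of −0.18 (−0.37 to −0.06), with 19 of 29 intervals below 0, 3 above and none beyond 2-fold. *Hk1* and *Hk2*, the hexokinases, had 2413 and 1014 counts in WT and 1988 and 809 in KO, with intervals that span 0 (−0.02 and −0.06). *Ldha*, lactate dehydrogenase A, had 9631 and 6027 (−0.41, −0.46 to −0.37) and *Slc2a1*, the glucose transporter GLUT1, 2033 and 1307 (−0.37, −0.47 to −0.27). *Hif1a* had 3114 and 1612 (−0.69, −0.77 to −0.60), while *Epas1*, the HIF-2α gene of EC, had 5463 and 6342 (0.48, 0.43 to 0.53), in a hypoxia list with a median of −0.10. In SAT on chow *Slc2a1* and *Hif1a* were higher in KO (0.97 and 0.47). *Hif1a* was also higher in SAT on HFD (0.45) and in VAT (0.16). *Slc2a1* was lower in VAT (−0.30) and had an interval spanning 0 in SAT on HFD (0.14). The insulin, AKT and FoxO list had a median of −0.05, with *Irs2* at 3705 and 1966 (−0.65) and *Insr*, the insulin receptor, at 1406 and 1590 (0.44). *Igf1*, given above, and *Foxo6*, at 35 and 2 counts (−3.59, −6.97 to −1.90), were its members beyond 2-fold.

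Cytosolic ribosomal protein genes lay lower as a list, with 73 of 78 intervals below 0 and 3 above and a median of −0.43 (−0.47 to −0.40). *Rpl3* had 21618 and 14099 counts (−0.35) and *Rplp0* 38056 and 22396 (−0.50), and *Rpl21* alone was beyond 2-fold at 3092 and 831 (−1.63), a gene whose reads its pseudogenes can share. The list was at −1.53 in SAT on chow, −0.20 in SAT on HFD and 0.25 in VAT. Genes that respond to handling were mixed. The immediate early list had a median of −0.13, with *Fos* at 15383 and 13879 (0.12) and *Fosb* at 8695 and 4801 (−0.59), and the heat shock list −0.18, with *Hspa1a* at 16014 and 20542 (0.62) and *Hspa8* at 70890 and 31817 (−0.89). Clock genes had a median of −0.23, with *Per2* at 662 and 375 (−0.56) and *Arntl* at 664 and 550 (−0.01), and the adipocyte list, with 4 genes tested, −0.25. Among nuclear long noncoding RNAs, with a median of 0.03, *Meg3* and *H19*, imprinted genes, had 434 and 59 counts in WT and 99 and 11 in KO (−1.86 and −2.11), and *Malat1* had 35450 and 35282 (0.26).

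Of all protein-coding genes, those with an interval farthest above 2-fold held tendon and smooth muscle genes already named (*Kera*, *Cilp2*, *Cnn1*) with others of scattered function. *Rmdn2*, *Hist1h3f*, *Ephx2*, *Klk10*, *Kcnk3*, *Efcc1*, *A730015C16Rik*, *Gm8251* and *Zfp418* were listed at 0 in WT and had 24 to 45 counts in KO. *Ephx2*, the soluble epoxide hydrolase, had 28, at least 11.2-fold higher. *Rgs7bp* had 3 and 62 counts (4.40, 3.02 to 6.95) and *Xirp1*, which binds actin in striated muscle, 3 and 57 (4.28, 2.89 to 6.83). These genes were at low counts, where the log2 fold changes of all genes spread most (SD 1.82 in the lowest decile of mean count and 0.322 in the highest).

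The genes farthest below included 3 of satellite cells (*Cdh15*, *Pax7*, *Myf5*) and *Hba-a2*. *Slc15a2*, a transporter of dipeptides (chromosome 16, 36750177 to 36784962), had 1694 counts in WT and 31 in KO, 104.0 and 2.28 CPM, a log2 fold change of −5.49 (−6.07 to −5.0). It was also lower in KO in VAT (−2.14) and higher in SAT on chow (0.96) and HFD (0.32). *Ocstamp*, of osteoclast and macrophage fusion, had 75 and 1 (−5.43, −11.29 to −3.44), *Plet1* 119 and 2 (−5.34, −8.69 to −3.75), *Adamdec1* 79 and 2 (−4.75, −8.11 to −3.14) and *Cd209b*, a lectin of marginal zone macrophages, 62 and 2 (−4.41, −7.77 to −2.78). *Fcgbp*, *Ermn*, *Adcy2*, *1110002E22Rik* and *Cited1* had 38 to 77 counts in WT and were listed at 0 in KO. *Fcgbp* was at least 21.4-fold lower and *Cited1* at least 10.5-fold lower.

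Among other biotypes the largest differences fell on immunoglobulin variable segments and pseudogenes. *Igkv14-100* had 694 counts in WT and was listed at 0 in KO, at least 193-fold lower against the floor, with an interval bound of −7.29 on the log2 scale, *Ighv5-9-1* had 1044 and 9 (−6.52, −7.73 to −5.66), and *Ighv1-77* 7 and 270 (5.43, 4.47 to 6.86). *Gm9825*, a processed pseudogene, had 1 and 124 counts (6.6, 4.71 to 12.53) and was higher in KO in the other pairs as well (2.60, 4.21 and 2.88 in SAT on HFD, SAT on chow and VAT). *Gm42031*, a long noncoding RNA, had 202 counts in WT and was listed at 0 in KO, at least 56.1-fold lower, and its counts were 87 and 0 in SAT on chow and 154 and 0 in VAT.

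**Figure D5:**
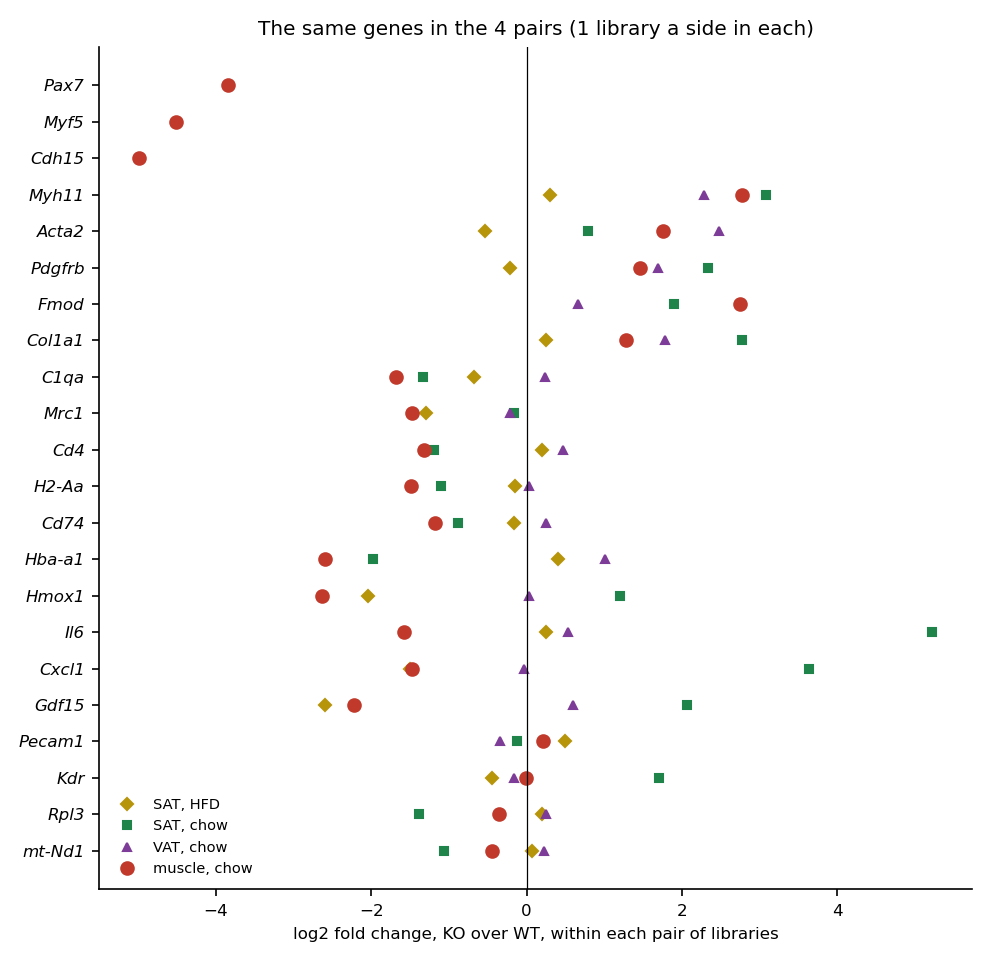
Log2 fold change of KO over WT (horizontal) of 22 genes in the 4 pairs of libraries, 1 marker for each pair in which the gene had at least 20 counts in total and was not at 0 in either library. In muscle (red circles) *Pax7* and *Hmox1* lie to the left and *Myh11* and *Fmod* to the right, and *Il6* lies on opposite sides in muscle and SAT on chow.

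Whether the KO to WT difference in muscle stood apart from the other tissues was tested with edgeR's quasi-likelihood test of the genotype effect in muscle minus the mean effect of the other 3 pairs, with the pair as a block. None of 16971 genes had an adjusted p-value under 0.05 (0% called), and 45 had an unadjusted p-value under 0.05. DESeq2's Wald test called 0 higher and 2 lower. The spread of the effects between SAT on HFD, SAT on chow and VAT, which leaves 2 residual degrees of freedom, enters this test. These pairs differ in tissue or diet and are not replicates of each other, so that the test had little power. A lack of calls does not show that muscle was like the other tissues. Between 0 and 4 genes, all lower, were called under the other settings. The values given for single pairs are therefore a description.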

How the data were processed

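RNAseq of FACS-sorted GFP+ cells was performed at Novogene. For RNA the labels name a column kit, the paper's methods Trizol, and libraries were made with a SMARTER kit for mRNA. The authors deposited whole-number counts per Ensembl gene, not normalised. HISAT2 2.0.5 and GRCm38/mm10 are named in the submitters' processing notes, while the counting program, the annotation release and the use of strand are not given in the sources used here, so that antisense and overlapping genes cannot be told apart. Where reads of near-identical genes went is likewise not given.

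The members and the 69 gene lists (1611 genes, 2 of them not matched) were chosen with earlier results of these data known. Named genes are *Tert*, the 15 protein-coding genes each way, and 3 of other biotypes, whose interval bound nearest 0 lay farthest from it, list members beyond 2-fold or marked as defining, and genes of the study's muscle and metabolic assays. A few genes outside this rule (*Arntl*, *Ciita*, *Rpl3*, *Spic* and, in the closing section, *Ighg1*, *Ighe*, *Ighg3*, *Il17a*, *Il17f*, *Icos*, *Apod*, *Eln* and pseudogenes) were chosen after their values were seen. Some genes that this rule names are not reported here. For the 102 gene names given to more than 1 gene, the first entry was used.

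Counts were scaled by edgeR 4.0.16 TMM factors over the 8 libraries (0.936 for muscle WT, 1.05 for KO). Log2 fold changes used a prior count of 0.5, and intervals are exact conditional binomial (Clopper-Pearson, scipy 1.17.1). Genes averaging under 10 counts in the pair were not tested. List medians have order-statistic intervals. Calls of the test between tissues used Benjamini-Hochberg adjustment at 0.05. The labels carry no replicate numbers, so tissue and diet formed the block. Alternatives were other scalings, count filters, a prior count of 5, list means, DESeq2 1.42.0, each pair left out and no block. Removal of the trend on mean count (100 bins) and the group of immunoglobulin variable genes were added after the values were known. Scripts were first tested on simulated data.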

Additional observations from a re-analysis of the deposited data

How the results depend on the processing

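Each muscle value rests on 1 library a side, so counting error alone sets the intervals, and no replicate could be left out. Calls among genes of 10 to 50 counts depended on the filter: of genes beyond 2-fold in muscle, higher in KO, 145 were called above a mean count of 50 and 971 were called with no filter, and 155 were lower above that mean. With library totals 3023 intervals lay below 0, and list medians were 0.10 (telomerase), 0.44 (pan-endothelial), 0.43 (VEGF), 0.56 (basement membrane), 0.19 (monocyte), 0.33 (mast cell), 0.065 (p53 targets), 0.28 (DNA damage), 0.40 (cell cycle), 0.11, 0.12 and 0.15 (complexes I, II and IV), 0.10 (TCA cycle), 0.064 (biogenesis), 0.25 (mitochondrial ribosome), −0.26 (ribosomal protein), −0.016 (glycolysis), −0.021 (heat shock) and 0.11 (insulin). The summed capillary markers, at −0.02 (log2) with TMM, turned to 0.14 with library totals and 0.0081 with median-of-ratios factors. The ribosomal protein median was −0.40 with median-of-ratios and −0.49 with upper quartile factors. With the trend on mean count removed, a setting chosen after seeing the data, medians were 0.38 (pan-endothelial), 0.47 (basement membrane), 0.32 (neutrophil granule), 0.27 (monocyte), −0.16 (MHC class I), 0.0022 (mitochondrial ribosome), −0.15 (ribosomal protein), −0.033 (glycolysis), −0.027 (heat shock) and 0.075 (immediate early). The list mean was 0.39 for VEGF and −0.00499 for MHC class II. Relative to the pan-endothelial median, the arterial list stood at 0.25, Notch at −0.39, VEGF at −0.013 and vascular tone at −0.081. The causes of these shifts were not tested, other than by each setting's own construction.

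The test of muscle against the other pairs called 2 genes, both lower, with DESeq2, 2 with at least 1 count in total, 4 without SAT on HFD, 3 without VAT, and 0 without SAT on chow, with median-of-ratios factors or with no replicate block.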

Other observations

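Immunoglobulin variable segments, each used by some B cells only, were examined as a group formed after the values were seen. Of 135 tested, 21 lay beyond 2-fold higher and 41 lower in KO, 45.9% in all, against 3.76% of protein-coding genes. *Igkv5-48* had 2039 and 34 counts, *Ighv1-18* 1459 and 52 and *Igkv17-127* 1438 and 63, while *Ighv1-80* had 54 and 300 and *Igkv4-59* 130 and 413. The constant regions differed too. *Ighg1* had 19218 and 4257 counts (−1.91), *Ighe*, of IgE, 323 and 54 (−2.31), and *Ighg3* 28 and 161 (2.76). *Ighg3* was higher in KO in the other pairs as well (2.51, 3.40 and 4.35 in SAT on HFD, SAT on chow and VAT).

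Some T cell products outside the lists were lower in KO in muscle. *Il17a* and *Il17f*, cytokines that recruit neutrophils, had 520 and 373 counts in WT and 128 and 37 in KO (−1.75 and −3.05), and *Icos*, a costimulatory receptor, had 2817 and 922 (−1.35). In SAT on chow *Il17a* and *Icos* were higher in KO (1.88 and 1.52). Of stromal genes outside the lists, *Apod*, apolipoprotein D, had 368 and 1350 counts (2.14) and *Eln*, elastin, 1081 and 2001 (1.15).

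Several pseudogenes were higher in KO across tissues. *Atp6v0c-ps2* had 14 and 418 counts in muscle (5.11), with 2.72, 4.50 and 4.46 in SAT on HFD, SAT on chow and VAT. *Gm6969* had 11 and 180 (4.23), with 5.12, 3.75 and 7.10 in the same order. *Gm11361* had 98 and 710 (3.11), with −0.48, 1.98 and 3.58. Reads of pseudogenes can be shared with their parent genes, and the part of this was not tested.

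Of 3085 genes with 60 to 200 counts in WT, 3 were listed at 0 in KO (0.0972%), and of 3314 with 60 to 200 counts in KO, 1 was listed at 0 in WT (0.0302%). Genes of the shortest decile, up to 1000 bases, had a median log2 fold change of −0.13.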
